A study of Rattus norvegicus with 300 samples.

Results

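Calcineurin and the calcium/calmodulin-dependent protein kinases were followed in rat brain through 9 of the 17337 genes in the deposited count table. The 9 genes were taken by name. They were the calcineurin catalytic subunit genes Ppp3ca, Ppp3cb and Ppp3cc, the calcineurin regulatory subunit gene Ppp3r1, the CaM kinase II subunit genes Camk2a, Camk2b, Camk2d and Camk2g, and Camk4, which encodes CaM kinase IV. Their levels, in CPM (the reads of a gene per 1000000 reads counted in that library), were read over all 10 regions and 6 treatments. The group was chosen by the level of Ppp3r1, which was known to stand apart in the Control libraries labelled ILC and in the Probiotics libraries labelled dorDG, so the values in those groups are given as a description, with no test.

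The study sequenced RNA of 300 tissue samples of male Long Evans rats, 60 days old, in 60 groups of 5 replicates. Treatments were taken with the drinking water for 3 weeks. The drugs were FT, Bupropion at 15 mg/kg/day and Desipramine at 7.5 mg/kg/day. The labels do not spell out FT; of the drugs in the treatment protocol, fluoxetine, at 13 mg/kg/day, has no group under its own name. Fluoxetine slows the reuptake of serotonin, desipramine that of noradrenaline, and bupropion that of noradrenaline and dopamine. The Probiotics group received a probiotic mixture whose dose the labels give in forms that do not match, and it is set here against Maltodextrin at 10 g/L. Maltodextrin and the 3 drugs are set against Control rats, which had plain water. Regions carry label abbreviations alone (dorDG and venDG, PLC and ILC, NACShell, BLA, CGC, mPOA, Raphe and LConly). Tissue punches were pooled before RNA extraction and the number of rats in a pool is not given, so the p-values measure the spread between these libraries, which may be technical.

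Calcineurin is a protein phosphatase that calcium switches on. Its catalytic subunit binds calmodulin and its regulatory subunit, calcineurin B, binds calcium itself, and both are needed for activity. CaM kinase II is a holoenzyme assembled from alpha, beta, gamma and delta subunits and is among the most abundant proteins of forebrain excitatory synapses, while CaM kinase IV acts mainly in the nucleus, where it phosphorylates CREB. The phosphatase and the kinases answer the same calcium signal with opposite reactions and are known for setting the strength of synapses up or down.

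The start regions of Ppp3r1 and Ppp3ca are shown because these partners in one enzyme parted in the groups where Ppp3r1 stood apart. Both are 300-base windows, 250 bases before to 50 after the start in the RefSeq promoter table of build GRCr8, and both lie on the plus strand, Ppp3r1 at chr14:95769596-95769895 and Ppp3ca at chr2:227839357-227839656. Capitals mark the GC box (GGGCGG, or CCGCCC on the other strand) and the core of the cAMP response element (TGACG, or CGTCA on the other strand). Both windows lie inside the span that RefSeq lists for the gene, so neither is at its outermost start. The letters were searched on both strands, and neighbouring GC boxes share a base in the Ppp3r1 window.
Ppp3r1: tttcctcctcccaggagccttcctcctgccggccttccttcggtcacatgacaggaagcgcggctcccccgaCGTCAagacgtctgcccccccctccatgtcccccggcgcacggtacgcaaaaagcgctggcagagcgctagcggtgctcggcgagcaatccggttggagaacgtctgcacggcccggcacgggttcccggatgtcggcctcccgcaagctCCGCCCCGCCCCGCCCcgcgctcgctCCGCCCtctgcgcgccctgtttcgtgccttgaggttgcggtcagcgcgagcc
Ppp3ca: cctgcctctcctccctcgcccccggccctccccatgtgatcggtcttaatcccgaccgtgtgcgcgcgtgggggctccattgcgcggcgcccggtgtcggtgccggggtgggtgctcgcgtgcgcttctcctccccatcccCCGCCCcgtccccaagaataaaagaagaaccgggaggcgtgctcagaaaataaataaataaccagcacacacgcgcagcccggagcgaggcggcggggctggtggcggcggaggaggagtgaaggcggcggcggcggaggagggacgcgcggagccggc
The Ppp3r1 window held 4 GC boxes and 1 TGACG core and was 70.3% G or C. The Ppp3ca window held 1 GC box and no TGACG core and was 70.0% G or C. Of all 27457 windows of that length, 34.9% held a GC box and 22.0% a TGACG core, and the median window was 52.3% G or C. Among the other members found in the table, Ppp3cb and Camk2b had 6 GC boxes each, Camk2g 9 and Camk2d 3. Ppp3cb also held 1 TGACG core. Camk2a and Camk4 had no GC box. Camk2a carried 2 TGACG cores and Camk4 a CCAAT box, which 37.7% of windows held. A match describes letters, not a binding site. Ppp3cc was the member not matched. RefSeq lists pseudogenes named Ppp3r1-ps2, Ppp3r1-ps4 and Ppp3cb-ps1, so reads of Ppp3r1 and Ppp3cb could have been split between near-identical copies, and their levels are uncertain to that extent.

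Depth lay between 198260 and 18310687 counted reads per library, with a median of 9232560, and 4 Desipramine libraries were below 1000000 (the replicate 3 library of BLA and the replicate 1 libraries of NACShell, dorDG and CGC). At these depths Ppp3ca had a median of 9806 reads per library, Ppp3r1 5701, Camk2b 5364, Ppp3cb 2638, Camk2a 1087, Camk4 659, Camk2g 437, Camk2d 324 and Ppp3cc 93, which leaves Ppp3cc with the widest counting error. Tph2, which serotonin neurons use to make serotonin, averaged 453 CPM or more in every group labelled Raphe. Dbh, which marks noradrenaline neurons, averaged 255 CPM where FT libraries were labelled ILC and 0.651 CPM where they were labelled LConly, against 1.52 CPM or less in the other groups labelled ILC and 62.5 CPM or more in the other groups labelled LConly. The FT libraries labelled ILC and LConly thus go against their labels, and no comparison within those regions set them against another group. The fits of ILC still used all 30 libraries with that label for the filter, the scaling and the spread. FT replicate 1 also stood apart in all 10 regions. Across the table, 1418 genes were highest and 1203 lowest in that replicate, among the 5 FT replicates, in every region, whereas no other treatment replicate had more than 3 and 7 such genes. Changes with FT are therefore given without FT replicate 1 as well.

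The members differed by region. Ppp3r1 was highest in dorDG and lowest in LConly. In Maltodextrin rats it averaged 1437 ± 25.5 CPM in dorDG, 1180.5 ± 80.5 in venDG, 1013 ± 16.4 in BLA, 934 ± 28.7 in CGC and 886 ± 11.96 in NACShell (SD, n = 5 each). Below these came ILC at 825 ± 15.0 CPM, PLC at 814 ± 32.7, mPOA at 361 ± 8.86, Raphe at 301 ± 6.87 and LConly at 274 ± 19.8. CGC and NACShell overlapped, as did ILC and PLC, and Raphe and LConly; the remaining neighbours in this order did not overlap. In bulk tissue such as this, fewer cells of a type and less RNA per cell cannot be told apart.

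The catalytic subunits had orders of their own. In Maltodextrin rats Ppp3ca averaged 2800.3 ± 95.3 CPM in dorDG, 1983 ± 56.2 in NACShell and 1905 ± 59.5 in BLA, and then fell away to 313 in mPOA, 275 in LConly and 216 ± 8.58 in Raphe. Ppp3cb lay between 311 and 383 CPM in 7 regions, each of which overlapped its neighbours, and between 105 and 139 CPM in mPOA, Raphe and LConly. Ppp3cc, which is also known from testis, lay between 8.36 and 15.6 CPM, and no neighbouring regions were separate. Over the medians of the treatments, the highest region exceeded the lowest 10.9-fold for Ppp3ca, 3.62-fold for Ppp3cb, 1.52-fold for Ppp3cc and 5.34-fold for Ppp3r1.

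Camk2a, the alpha subunit typical of forebrain excitatory neurons, had the widest range of the members. In Maltodextrin rats it averaged 455 ± 23.1 CPM in dorDG, 335 ± 18.1 in CGC, 249 ± 35.7 in venDG, 179 ± 9.23 in BLA and 149.8 ± 10.2 in NACShell. It was 95.5 ± 7.83 CPM in PLC, 86.5 ± 6.43 in ILC, 45.3 ± 4.04 in mPOA, 6.56 ± 1.58 in LConly and 5.17 ± 1.29 in Raphe. Its highest region exceeded its lowest 55.1-fold over the medians of the treatments. Camk2b, the actin-binding beta subunit, had a 6.90-fold range, with 1499 ± 39.5 CPM in dorDG and 160.3 ± 12.3 in Raphe. Camk2d and Camk2g, the delta and gamma subunits, which are also made outside neurons, ran otherwise. Camk2d was highest in BLA at 57.8 ± 6.48 CPM and lowest in dorDG at 7.87 ± 2.08, a 7.41-fold range of medians, and Camk2g went between 71.2 ± 4.66 CPM in CGC and 26.7 ± 4.64 in NACShell. Camk4 averaged 165 ± 5.92 CPM in BLA, 129 ± 8.61 in dorDG and 14.0 ± 1.92 in Raphe.

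**Figure D1:**
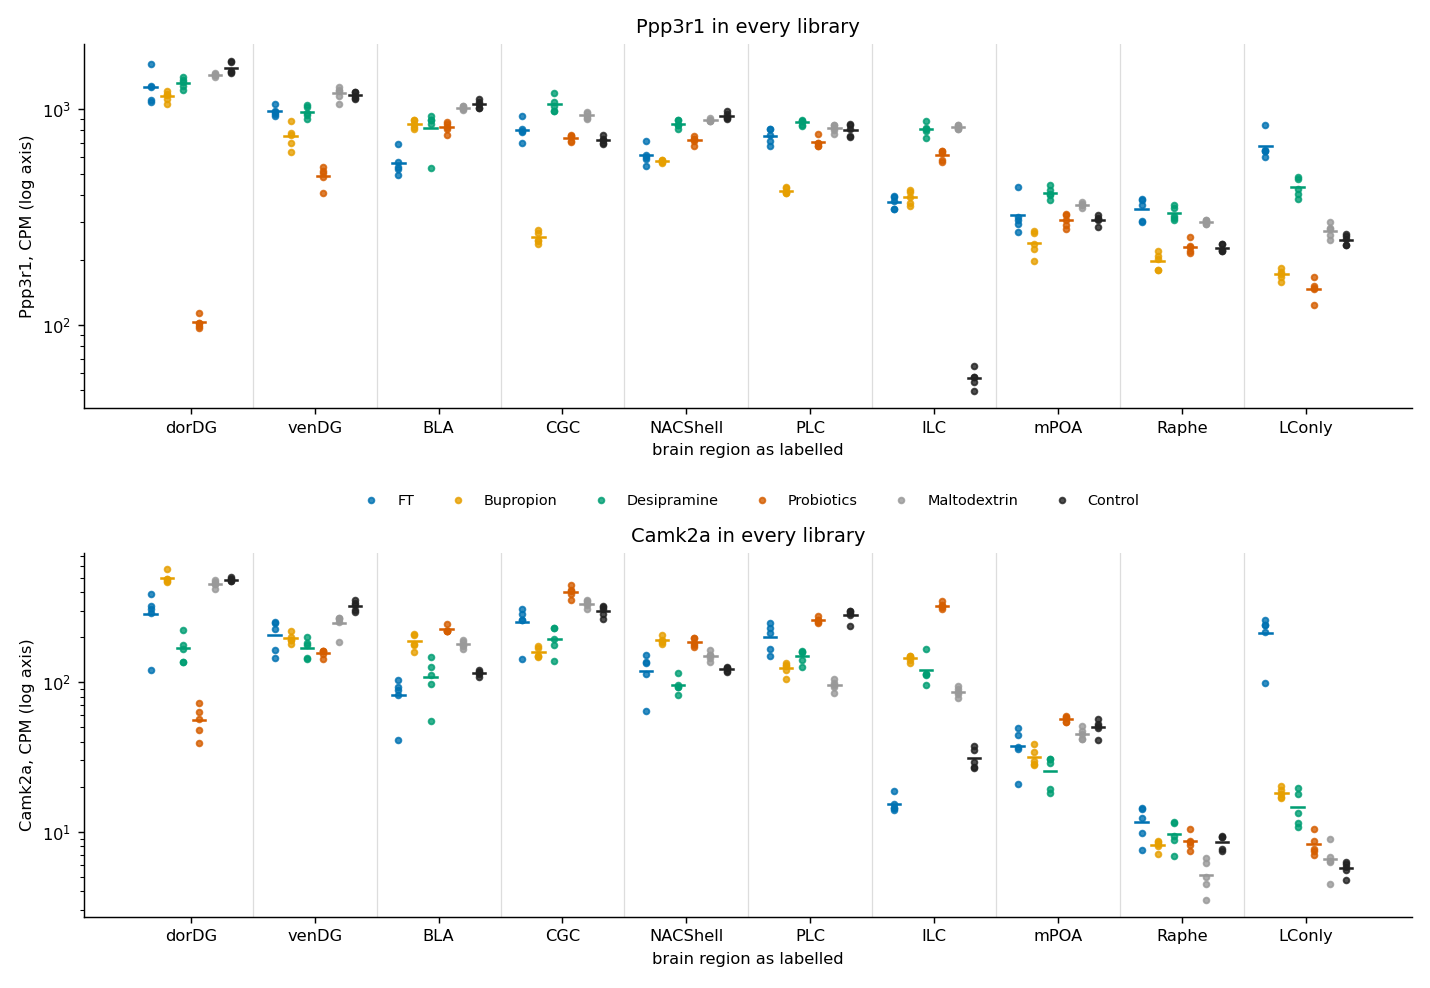
Levels of Ppp3r1 and Camk2a in every library, in CPM on a log axis, by region and treatment; each point is a library and each bar the mean of a group. The Ppp3r1 points of Control rats in ILC lie near 56.8 CPM and those of Probiotics rats in dorDG near 103 CPM, far below the other treatments of those regions.

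In the Control libraries labelled ILC, Ppp3r1 was at 57.5, 49.4, 54.5, 64.9 and 57.8 CPM. The 20 libraries of Bupropion, Desipramine, Probiotics and Maltodextrin rats from that region lay between 357 and 878 CPM. The groups were thus far apart, the Control mean being 56.8 ± 5.64 CPM and the median of the other 4 group means 709 CPM. On the log2(CPM + 1) scale that is a difference of -3.62, and 0.0621% of the 9663 genes that averaged at least 5 CPM were further down. The CaM kinase II genes followed in the same direction. Camk2a was at 35.2, 29.1, 37.4, 27.2 and 26.7 CPM in the Control libraries, against 78.1 to 348 CPM in the other treatments, a log2 difference of -2.06. Camk2b averaged 201 ± 9.92 CPM in Control against 281 to 611 CPM (-1.29), Camk2g 16.02 ± 2.12 CPM against 25.2 to 59.4 CPM (-1.29) and Camk2d 26.3 ± 2.37 CPM against 36.0 to 60.5 CPM (-0.84). On raw totals, all 4 CaM kinase II genes thus lay below every other library of the region.

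The catalytic subunits Ppp3ca and Ppp3cb did not go down with Ppp3r1 in those libraries. Ppp3ca averaged 1117 ± 57.0 CPM in Control, against 912 to 1098 CPM in the other treatments, and Ppp3cb 380 ± 31.9 CPM against 290 to 422 CPM. Ppp3cc averaged 8.27 ± 1.08 CPM in Control against 4.70 to 22.1 CPM (-0.53), and Camk4 54.99 ± 2.67 CPM against 51.7 to 96.6 CPM (-0.51). All 4 overlapped the other treatments. Beside Ppp3r1, whose level chose the members, 4 of the other 8 lay wholly below and none wholly above the other libraries, whereas 25.1% and 9.47% of the 9663 genes did so; nothing is read from that count. The scaling bears on the smaller of these differences, since the median over all genes was -0.40 on raw totals, -0.02 after TMM and 0.01 after RLE scaling. After TMM and RLE scaling Ppp3r1 differed by -3.14 and -3.12, Camk2b overlapped the other treatments, and Ppp3ca lay wholly above them at 0.61 and 0.64, as did Ppp3cb at 0.44 and 0.48.

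In the Probiotics libraries labelled dorDG, Ppp3r1 was at 99.4, 102, 97.1, 102 and 114 CPM. The 25 libraries of the other 5 treatments lay between 1057 and 1676 CPM. The Probiotics mean was 103 ± 6.71 CPM and the median of the other group means 1324 CPM, a difference of -3.67 on the log2(CPM + 1) scale, and 0.103% of genes were further down. Camk2a was at 57.1, 72.7, 62.8, 48.0 and 39.0 CPM in the Probiotics libraries, against 120 to 569 CPM in the other treatments (-3.00). Camk2g averaged 13.0 ± 3.98 CPM in Probiotics against 25.9 to 63.6 CPM (-1.67). These 3 members lay below every other library of the region.

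Ppp3ca averaged 3921 ± 312 CPM in the same Probiotics libraries, against 2262 to 3650 CPM in the other treatments (0.49), and Ppp3cb 546 ± 42.4 CPM against 313 to 499.7 CPM (0.62). On raw totals both overlapped. After TMM scaling both lay wholly above the other libraries, at 0.59 for Ppp3ca and 0.74 for Ppp3cb, and after RLE scaling Ppp3cb did. Ppp3cc, Camk2b, Camk2d and Camk4 overlapped the other treatments under each scaling. On raw totals they differed by -0.58, -0.61, -0.67 and -0.06. Beside Ppp3r1, 2 of the other 8 members lay wholly below and none wholly above, near the 18% and 13.6% of all genes that did so. Camk2a and Camk2g lay below in both groups, while Camk2b and Camk2d stood below in Control ILC and overlapped in Probiotics dorDG.

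**Figure D2:**
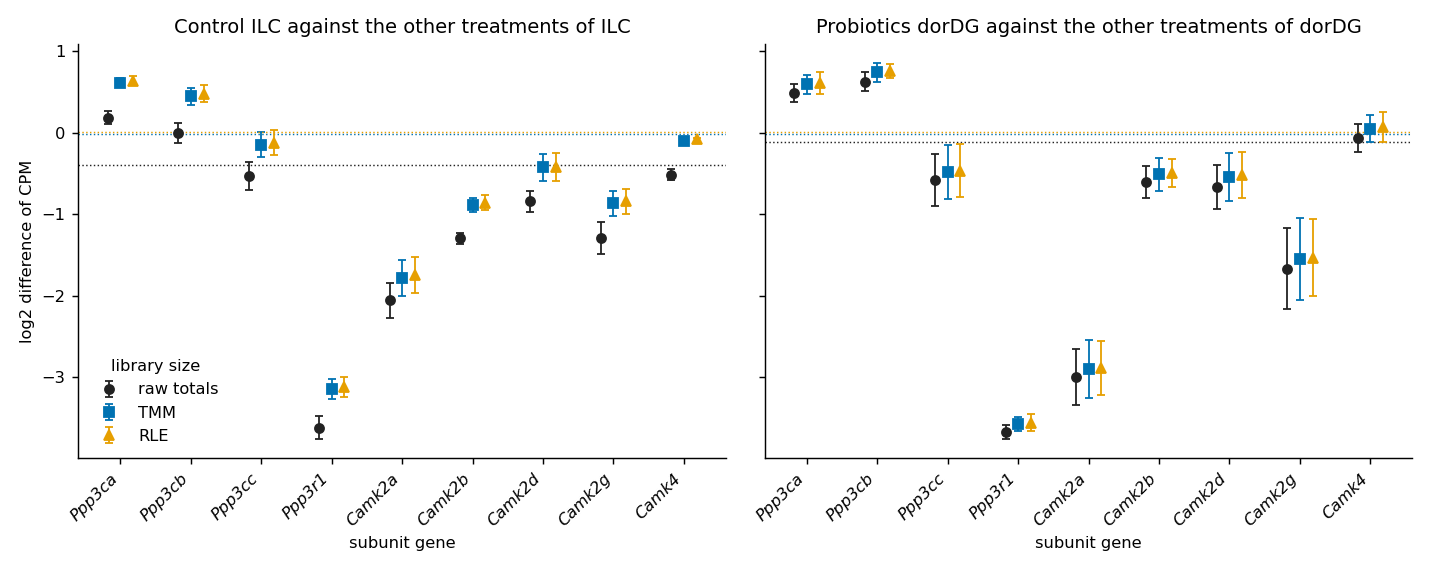
Log2 difference of each member from the median of the other treatments' means, in Control ILC and in Probiotics dorDG, under 3 scalings; error bars are the SD over 5 libraries and dotted lines the median of all genes. Ppp3r1 lies between -3.67 and -3.12 in both groups, and the catalytic subunits Ppp3ca and Ppp3cb lie at or above 0 except Ppp3cb in Control ILC on raw totals, at -0.00.

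Markers of several cell types were also displaced in these libraries, and their part in the result was not tested. In Control ILC, 4 of 5 markers of excitatory forebrain neurons lay wholly below the other treatments, with summed levels of 305 to 325 CPM against 597 to 723 CPM. Slc17a7, the vesicular glutamate transporter, averaged 23.4 ± 2.48 CPM there against at least 261 CPM, but Neurod6, from the same list, averaged 251 ± 5.97 CPM within the range of the others. Of 5 oligodendrocyte markers, 2 lay below and 2 above, with sums of 2031 to 2551 CPM against 1740 to 3967 CPM, and 3 of 4 immune markers lay above, with sums of 41.1 to 45.3 CPM against 17.4 to 30.3 CPM. In Probiotics dorDG, 2 of 5 excitatory markers lay below, with sums of 322 to 489 CPM against 789 to 951 CPM, and Slc17a7 averaged 28.6 ± 3.30 CPM against at least 288 CPM. Of 5 oligodendrocyte markers, 3 lay below and 1 above, with sums of 3554 to 4098 CPM against 8804 to 14699 CPM, and Mbp averaged 597 ± 39.7 CPM against at least 4762 CPM. None of these markers was at 0. Among the regions, both groups were closest to the labelled one, with r = 0.934 for Control ILC and 0.901 for Probiotics dorDG across genes. For Probiotics dorDG the next region, ILC, was nearly level at 0.892, and for Control ILC the next, PLC, had 0.917. Control ILC and Probiotics dorDG had r = 0.929 with each other. Probiotics dorDG was thus closer to Control ILC than to its labelled region, and the cause was not tested. Apart from these and the FT groups labelled ILC and LConly, the 56 other groups had 0.960 or more with their labelled regions. The 2 measures differ. For Control ILC and Probiotics dorDG, r was with the median of all other treatments of a region, FT libraries labelled ILC and LConly included. The ILC median set beside Probiotics dorDG thus held Control ILC. For the 56 groups, these 4 groups were left out of the medians.

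Ppp3r1 was then set beside the other members over the means of all 60 groups, as log2(CPM + 1). Groups of one region share tissue and groups of one treatment may share animals, so the correlations are descriptive. Over the 60 groups, r with Ppp3r1 was 0.76 for Camk2a, 0.71 for Camk2b, 0.62 for Ppp3cb, 0.61 for Ppp3ca, 0.58 for Camk4, 0.43 for Ppp3cc, -0.02 for Camk2d and -0.04 for Camk2g. Without the 4 groups that stood apart or went against their labels, r was 0.88 for Ppp3cb, 0.86 for Ppp3ca, 0.83 for Camk2a, 0.79 for Camk2b, 0.74 for Camk4, 0.42 for Ppp3cc, -0.18 for Camk2d and -0.53 for Camk2g. The order thus turned. The groups left out include those chosen for their low Ppp3r1, so the turn restates the levels described above and is no separate result. Over the 56 groups Ppp3r1 ran closest to Ppp3cb and Ppp3ca and opposite to Camk2g, yet in the Control ILC and Probiotics dorDG libraries it was Camk2g that was low with it and Ppp3ca and Ppp3cb that were not. The catalytic pair itself kept r = 0.90 in both sets, and Camk2a with Camk2b had 0.89 and 0.91.

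**Figure D3:**
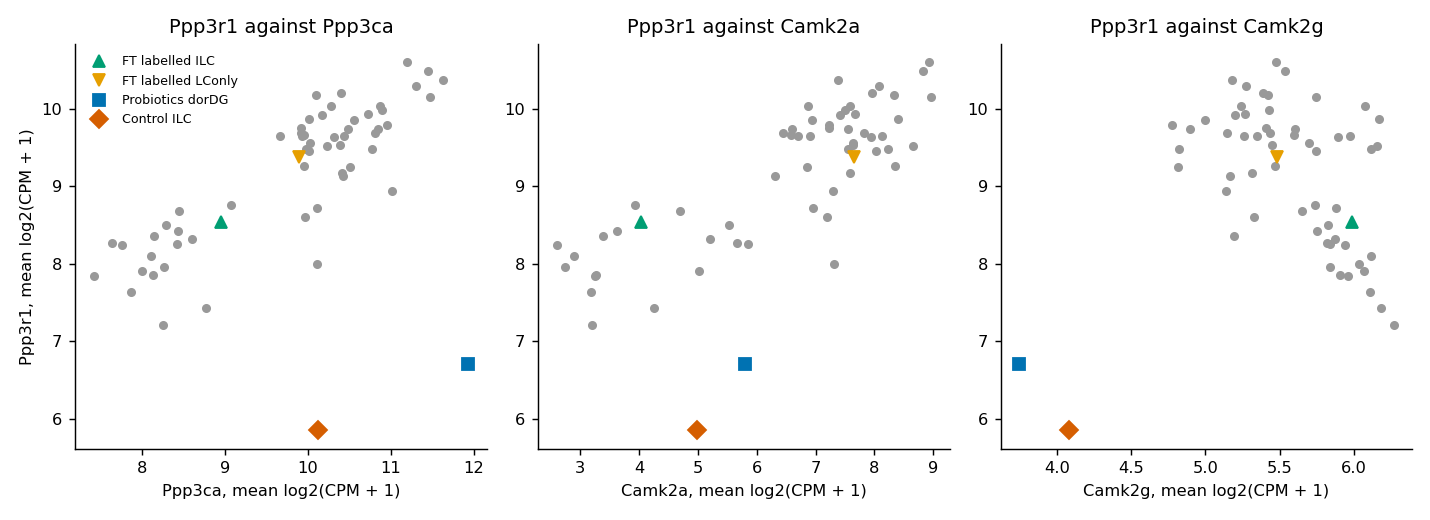
Mean log2(CPM + 1) of Ppp3r1 against that of Ppp3ca, Camk2a and Camk2g in the 60 groups, one point a group; the Control ILC, Probiotics dorDG, FT ILC and FT LConly groups are marked. Control ILC and Probiotics dorDG lie off the line of the other groups for Ppp3ca, where r was 0.61 with them and the 2 FT groups and 0.86 without, and Camk2g runs downward among the other groups. Both groups were chosen for their low Ppp3r1, so their place off the line is a description.

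Among the 9663 genes, the 5 with the largest r with Ppp3r1 over 60 groups were Rnf6 (0.95), Itpa (0.92), Ldah (0.91), Dnajb5 (0.91) and Lppr5 (0.90). Over the 56 groups they were Dnajb5 (0.96), Exoc6 (0.95), the AMPA receptor subunit gene Gria2 (0.94), Rnf6 (0.93) and Prickle1 (0.93). By the same measure, over 56 groups, Ppp3cb ranked 55, Ppp3ca 117 and Camk2a 230, while Camk2g ranked 8788. Rnf6 had 25.5 ± 4.42 CPM in Control ILC against 56.5 to 90.8 CPM in the other treatments, and 31.4 ± 5.66 CPM in Probiotics dorDG against 74.1 to 94.8 CPM. The ranking over 60 groups included both of these groups, so the low Rnf6 there is part of that ranking and no separate result. Gria2 had 1543 ± 128 CPM in Control ILC, within the 893 to 2589 CPM of the other treatments, and 1854 ± 111 CPM in Probiotics dorDG against 2097 to 3635 CPM. Library by library within groups, the deviations from the group mean gave r = 0.50 between Ppp3r1 and Ppp3ca and -0.44 between Ppp3r1 and Camk2a over 296 libraries, and 0.25 and -0.15 over the 246 of these that were not FT libraries.

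A survey of 58 groups, without the FT groups labelled ILC and LConly, asked in which groups a member lay below or above every other library of its region. Over all genes and groups, 2.95% of pairs lay below and 2.54% above. Ppp3r1 lay below in 5 of the 58 groups, the Control ILC and Probiotics dorDG groups, where it was chosen for its low level, and 3 more. In Bupropion CGC it was at 246, 266, 236, 249 and 277 CPM, against 688 CPM or more in the other treatments. In Bupropion PLC its highest library had 437 CPM, against 673 CPM or more, and in Probiotics venDG its highest had 537 CPM, against 632 CPM or more. Camk2d lay below with it in Bupropion CGC, at 20.9 ± 2.04 CPM against 29.6 CPM or more, no other member did so in Bupropion PLC or Probiotics venDG, and Camk2b lay above in Probiotics venDG. No catalytic subunit lay below with Ppp3r1 in any of the 5 groups. With 2.95% of all pairs below, that is near the share over all genes, and nothing is read from it. Ppp3r1 lay above in Desipramine CGC at 1052 ± 88.1 CPM and in Desipramine LConly at 434 ± 43.1 CPM, in the second together with Ppp3cb, Camk2b, Camk2d and Camk4. Ppp3ca lay below in 3 groups, all of them Control. Its means there were 200 CPM in mPOA, 814 CPM in PLC and 171 CPM in Raphe. The libraries of the other treatments had 237, 927 and 205 CPM or more.

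To ask what each treatment did to the members across tissue, the counts of CGC, mPOA, NACShell, PLC and Raphe, 5 regions of which no group was used in choosing the members, were summed within each treatment replicate and fitted together. Changes are log2 fold changes with their standard error from edgeR's quasi-likelihood test, and calls are at a Benjamini-Hochberg adjusted p under 0.05 over 13951 genes. The 3 drugs and Maltodextrin share the same Control libraries, so their results are not independent. CPM are on raw totals and the fitted changes on TMM-scaled ones, so small differences can be larger, smaller or of opposite sign in the fit.

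In Bupropion rats Ppp3r1 fell in all 5 regions, and Ppp3ca rose in 4 and fell in 1. In mPOA, PLC and Raphe the Control libraries had less Ppp3ca than every library of the other treatments, so its rises there were not particular to Bupropion. Ppp3r1 was lower than in Control in each of the 5 regions. In CGC it was at 246, 266, 236, 249 and 277 CPM in Bupropion rats, against 693, 757, 716, 688 and 728 CPM in Control rats. In PLC it was at 408, 415, 431, 408 and 437 CPM in Bupropion rats, against 845, 856, 811, 747 and 746 CPM in Control rats. The groups did not overlap in either region. The fitted change was -1.37 ± 0.06 in CGC (edgeR, adjusted p = 2.36e-18) and -0.84 ± 0.06 in PLC (adjusted p = 3.03e-13). In NACShell Ppp3r1 averaged 574 ± 7.30 CPM in Bupropion against 929.5 ± 31.9 CPM in Control (SD, n = 5 each), a change of -0.77 ± 0.05 (adjusted p = 1.64e-14). The falls in mPOA, to 240.4 CPM against 308 CPM, and in Raphe, to 198 CPM against 228 CPM, were smaller, at -0.32 and -0.37 (adjusted p = 0.000778 and 1.81e-05). Summed, the 5 regions gave -0.80 ± 0.04 (adjusted p = 7.98e-16).

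Of the 9 members, 1 rose and 4 fell with Bupropion over the 5 regions, in a comparison in which 50.5% of all genes were called. Ppp3ca rose by 0.21 ± 0.07 (adjusted p = 0.0148), with its largest rise in PLC, where it averaged 1104 ± 33.7 CPM against 814 ± 12.1 CPM in Control (0.53, adjusted p = 3.04e-07). In NACShell it fell, to 1361 ± 47.1 CPM against 1510 ± 33.9 CPM in Control, with no overlap (-0.23, adjusted p = 0.0204). Camk2a fell by 0.60 ± 0.10 on the log2 scale (adjusted p = 1.34e-05), but not everywhere, as it rose in NACShell to 191 ± 10.2 CPM, against 122 ± 3.996 CPM in Control (0.56 ± 0.10, adjusted p = 3.18e-05). In PLC it fell to 124 ± 11.9 CPM, against 281 ± 25.6 CPM in Control (-1.09 ± 0.09, adjusted p = 2.09e-11). Camk2d fell by 0.40 ± 0.03 (adjusted p = 7.61e-12) and Ppp3cc by 0.27 ± 0.07 (adjusted p = 0.00293). Ppp3cc fell furthest in NACShell (-0.80, adjusted p = 2.65e-07), Camk2a also fell in mPOA (-0.63, adjusted p = 0.000282), and Camk2d fell in Raphe (-0.48, adjusted p = 1.39e-06). Ppp3ca was the member that rose most in CGC (0.25), mPOA (0.40) and Raphe (0.28). Ppp3cb, Camk2b, Camk2g and Camk4 had changes between -0.04 and 0.10 and were not called. For Ppp3cb that stood over a fall in NACShell (-0.48, adjusted p = 3.39e-10) and a rise in PLC (0.22, adjusted p = 0.00224). In the single regions, 24 of 45 tests of a member in a region were called with Bupropion, beside 51.6% of all genes in CGC, 39.3% in mPOA, 48% in NACShell, 47.1% in PLC and 43.6% in Raphe. Markers moved in the regions with the largest falls of Ppp3r1, and their part was not tested. In CGC 4 of 5 oligodendrocyte markers were wholly higher with Bupropion, with sums of 12647 to 14929 CPM against 8225 to 9568 CPM in Control, and the sum of the excitatory markers was 638 to 667 CPM against 735 to 773 CPM. In PLC the excitatory sum was 616 to 660 CPM with Bupropion against 832 to 882 CPM in Control.

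With Desipramine the kinase II genes fell over the 5 regions while Ppp3r1 was not called. Camk2a in PLC was at 159.6, 127, 161, 141 and 160.4 CPM in Desipramine rats, against 280.3, 297, 302, 289 and 238 CPM in Control rats. Every Desipramine library lay below every Control library. The change was -1.07 ± 0.09 (edgeR, adjusted p = 3.13e-11). In mPOA it averaged 25.5 ± 6.29 CPM in Desipramine against 50.2 ± 5.69 CPM in Control, a change of -1.21 ± 0.14 (adjusted p = 5.48e-09). Camk2g in Raphe was at 33.0, 30.9, 34.0, 38.5 and 42.5 CPM in Desipramine rats, against 53.3, 55.9, 66.7, 62.2 and 69.8 CPM in Control rats. Again the groups did not overlap, and the change was -1.06 ± 0.14 (adjusted p = 5.61e-08). Over the 5 regions Camk2a fell by 0.86 ± 0.10 (adjusted p = 2.01e-08), Camk2g by 0.63 ± 0.09 (adjusted p = 5.91e-07), Camk2b by 0.40 ± 0.07 (adjusted p = 7.10e-06) and Camk2d by 0.16 ± 0.03 (adjusted p = 2.77e-05). Camk2g was lower in all 5 regions, and was called in each. Camk2d, by contrast, rose in CGC to 47.1 ± 4.95 CPM, against 33.8 ± 2.53 CPM in Control, with no overlap (0.29, adjusted p = 0.000768). Camk2a was lowest of the members in CGC (-0.81, adjusted p = 1.99e-06) and Camk2b in NACShell (-0.52, adjusted p = 1.46e-06).

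Ppp3cc and Ppp3cb moved the other way with Desipramine. Ppp3cc in PLC was at 14.8, 15.7, 15.0, 12.03 and 14.1 CPM in Desipramine rats, against 7.89, 9.31, 7.38, 8.11 and 6.17 CPM in Control rats, with no overlap (0.73 ± 0.10, adjusted p = 2.13e-07). Over the 5 regions Ppp3cc rose by 0.61 ± 0.07 (adjusted p = 1.30e-08) and Ppp3cb by 0.15 ± 0.04 (adjusted p = 0.00185), although Ppp3cb fell in NACShell (-0.15, adjusted p = 0.0154). Ppp3cc rose as well in CGC (0.75), mPOA (0.88) and Raphe (0.64), and in NACShell no member rose. Ppp3r1 changed by 0.03 ± 0.04 (adjusted p = 0.486). That figure hides opposite regions, as Ppp3r1 rose by 0.35 ± 0.06 in CGC (adjusted p = 1.01e-05) and by 0.25 ± 0.06 in Raphe (adjusted p = 0.00102) and fell by 0.30 ± 0.05 in NACShell (adjusted p = 1.43e-05). In all, 2 members rose and 4 fell, beside 66.4% of all genes called. Of 45 tests in single regions 34 were called, beside 57.6% of genes in CGC, 64.6% in mPOA, 41.3% in NACShell, 59.7% in PLC and 59.9% in Raphe. All 5 oligodendrocyte markers were wholly lower with Desipramine in mPOA, with sums of 24786 to 31150 CPM against 48535 to 59986 CPM in Control, and in Raphe, with 53761 to 65574 CPM against 112219 to 126934 CPM. In PLC, where Camk2a fell, the excitatory sum was 715 to 749 CPM with Desipramine against 832 to 882 CPM in Control, with 1 of 5 excitatory markers wholly lower and 1 wholly higher. The part of these markers in the results was not tested.

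With FT all 9 members were called, 3 higher and 6 lower, where 58.7% of all genes were. Ppp3r1 fell by 0.22 ± 0.04 (edgeR, adjusted p = 1.73e-05) and by 0.26 ± 0.03 without FT replicate 1 (adjusted p = 6.69e-08). In NACShell it was at 713, 613, 589.6, 546 and 599 CPM in FT rats, against 977, 911, 944, 895 and 921 CPM in Control rats. All FT libraries lay below all Control libraries there (-0.73 ± 0.05, adjusted p = 9.50e-14, and -0.78 without FT replicate 1). In Raphe, by contrast, it rose to 345 ± 40.0 CPM, against 228 ± 9.00 CPM in Control (0.24 ± 0.06, adjusted p = 0.00158, and 0.21 without FT replicate 1). Camk2d fell by 0.52 ± 0.03 over the 5 regions (adjusted p = 1.82e-14) and by 0.51 without FT replicate 1. In Raphe Camk2d averaged 21.9 ± 2.77 CPM in FT against 32.0 ± 1.198 CPM in Control, and in mPOA 24.7 ± 3.24 CPM in FT against 40.7 ± 1.66 CPM in Control. The changes were -0.91 and -0.87, or -0.92 and -0.91 without FT replicate 1.

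FT replicate 1 decided other values. It had the highest Ppp3ca and the lowest Camk2a, Camk2b and Camk2g of the 5 FT replicates in each of the 10 regions. Ppp3ca in mPOA was at 623, 347, 371, 304 and 362 CPM in FT rats, against 182, 178, 214, 214 and 213 CPM in Control rats. The groups did not overlap even without the 623 CPM of replicate 1, and the change was 0.84 ± 0.09 (adjusted p = 3.89e-09), or 0.67 without that replicate (adjusted p = 2.30e-12). Over the 5 regions, however, the rise of Ppp3ca was 0.17 ± 0.07 (adjusted p = 0.0447), and 0.03 without FT replicate 1 (adjusted p = 0.466). The call was also lost without any one of the 5 Control replicates. Ppp3cb rose by 0.10 ± 0.04 (adjusted p = 0.0289), and by 0.04 without FT replicate 1 (adjusted p = 0.175). Its call was lost, too, without FT replicate 3, Control replicate 1 or Control replicate 5, and in NACShell Ppp3cb fell, to 288 ± 28.4 CPM against 340 ± 7.82 CPM in Control, with no overlap (-0.37, adjusted p = 1.04e-07, and -0.41 without FT replicate 1). Camk2b fell by 0.25, and by 0.15 without FT replicate 1 (adjusted p = 0.000337). In Raphe, however, Camk2b rose to 274 ± 33.9 CPM, against 184 ± 8.41 CPM in Control, with no overlap (0.23, adjusted p = 0.00622, and 0.31 without FT replicate 1). With FT and Control alone in the fit, the calls of Ppp3ca (adjusted p = 0.253), Ppp3cb (0.228) and Camk2b (0.0578) were lost. Camk2a fell by 0.47 with it and by 0.33 without it, and Camk2g by 0.35 with it and by 0.24 without it, with all calls kept. Camk4 fell by 0.24 (0.26 without it) and Ppp3cc rose by 0.28 (0.22 without it).

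Ppp3cc rose in CGC (0.45, adjusted p = 0.00280, and 0.43 without FT replicate 1) and in PLC (0.45, adjusted p = 0.000860, and 0.44 without it). Camk2a was the member furthest down in both, at -0.38 in CGC (-0.23 without FT replicate 1) and -0.60 in PLC (-0.49 without it). Ppp3ca rose most in Raphe, by 0.68, or 0.54 without FT replicate 1, and in NACShell no member rose. In the single regions 32 of 45 tests were called with FT, or 30 without FT replicate 1, beside 43% of genes in CGC, 48.8% in mPOA, 46.7% in NACShell, 42.7% in PLC and 61.2% in Raphe. Without FT replicate 1, the CGC calls of Ppp3ca (adjusted p = 0.227), Ppp3cb (0.0791), Camk2b (0.0585) and Camk2d (0.109) were lost. Ppp3ca in NACShell became a fall of 0.31 (adjusted p = 7.11e-07), and Ppp3r1 in mPOA a fall of 0.18 (adjusted p = 0.0220). FT replicate 1 was also the shallowest, at 3511756 to 4807308 counted reads per region against 4917517 to 12340879 in FT replicates 2 to 5, and its oligodendrocyte sum was the lowest of the FT replicates in all 10 regions. Beside the Control rats, 5 of 5 oligodendrocyte markers were wholly lower with FT in mPOA, with sums of 20240 to 31895 CPM against 48535 to 59986 CPM, and 4 of 5 in Raphe, with 54245 to 75845 CPM against 112219 to 126934 CPM. In FT NACShell 3 of 3 preoptic markers were wholly higher, with sums of 107 to 307 CPM against 1.68 to 5.72 CPM in Control, and 3 of 4 striatal markers wholly lower, with sums of 766 to 863 CPM against 1045 to 1092 CPM. The part of these markers and of depth in the results was not tested.

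**Figure D4:**
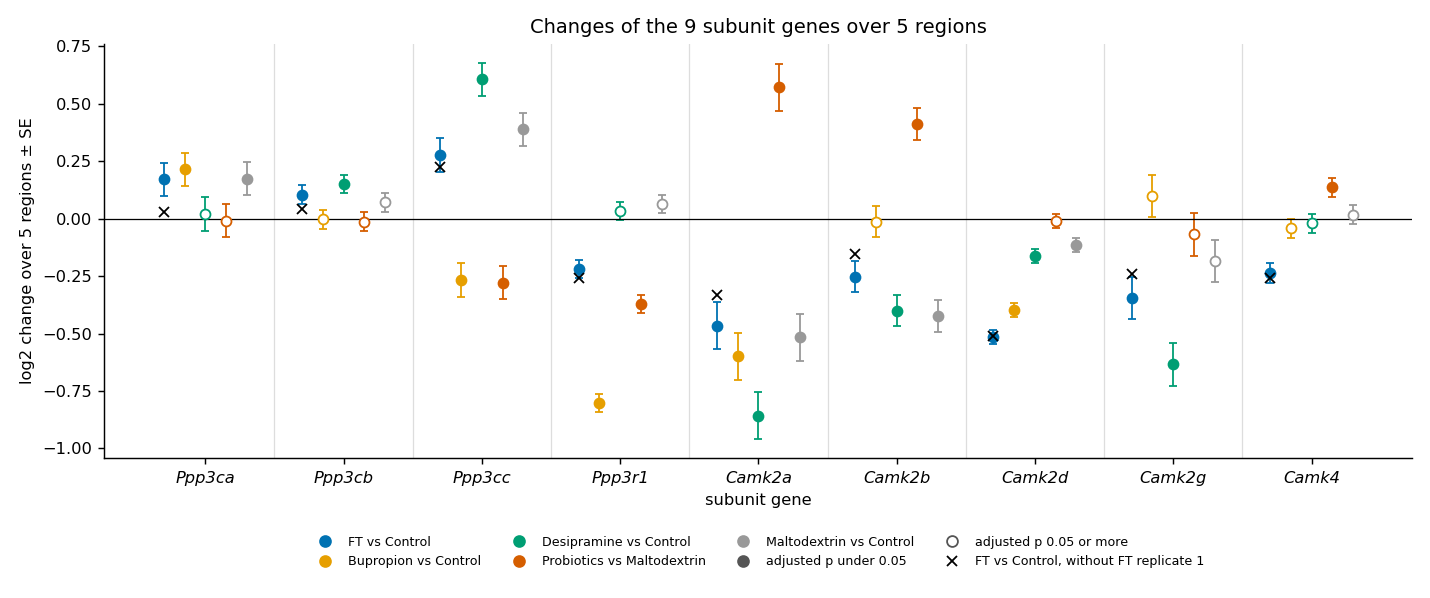
Log2 change of each member over CGC, mPOA, NACShell, PLC and Raphe together, with its standard error, in the 5 comparisons; filled points have an adjusted p under 0.05 and crosses give FT without replicate 1. Ppp3r1 is lowest with Bupropion at -0.80, and Camk2a lies below 0 in each comparison with Control and at 0.57 in Probiotics against Maltodextrin. Probiotics and Control are set against the same Maltodextrin libraries.

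Probiotics rats, set against Maltodextrin rats, had more Camk2a and Camk2b and less Ppp3r1. The same Maltodextrin libraries, set against Control, had less Camk2a (-0.52) and Camk2b (-0.42), so these comparisons are not independent. In PLC and Raphe every Maltodextrin library had less Camk2b than every library of the other treatments, and in Raphe less Camk2a. The rises there were thus not particular to Probiotics. In CGC the Probiotics libraries lay above all others for Camk2a and Camk2b, and in mPOA for Camk2b. Camk2a in PLC was at 259.9, 248, 279, 259 and 251 CPM in Probiotics rats, against 105, 95.6, 93.0, 99.2 and 84.3 CPM in Maltodextrin rats. The groups were well apart (1.24 ± 0.09, edgeR, adjusted p = 9.19e-13). Camk2a in PLC averaged 260 ± 11.9 CPM in Probiotics and 281 ± 25.6 CPM in Control, a pair that was not tested. In NACShell it averaged 186 ± 12.3 CPM in Probiotics, 149.8 ± 10.2 CPM in Maltodextrin and 122 ± 3.996 CPM in Control. Over the 5 regions Camk2a rose by 0.57 ± 0.10 (adjusted p = 2.76e-05) and Camk2b by 0.41 ± 0.07 (adjusted p = 9.30e-06), the second being called in each of the 5 regions. Ppp3r1 was also called in each region, downward. In Raphe it was at 230.3, 232, 257, 216 and 219.7 CPM in Probiotics rats, against 294, 303, 308, 294.5 and 308 CPM in Maltodextrin rats, with no overlap (-0.52 ± 0.06, adjusted p = 6.46e-08). All 5 regions together gave a fall of 0.37 ± 0.04 (adjusted p = 3.92e-09). Ppp3cc fell by 0.28 ± 0.07 (adjusted p = 0.00186), although it rose in PLC, to 12.2 ± 1.41 CPM against 8.36 ± 1.11 CPM in Maltodextrin (adjusted p = 0.00862, or 0.0678 without Maltodextrin replicate 4). Ppp3cc fell in CGC (-0.42, adjusted p = 0.00493) and NACShell (-0.62, adjusted p = 3.87e-05). Ppp3r1 was the member furthest down in mPOA (-0.34) and PLC (-0.42), and Camk2b rose most in mPOA (0.28) and NACShell (0.47). Camk4, which rose most in Raphe (0.69, adjusted p = 9.76e-07), rose by 0.14 ± 0.04 over the 5 regions (adjusted p = 0.00839), a call lost without Maltodextrin replicate 5 (adjusted p = 0.0609).

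In that comparison 3 members rose and 2 fell, beside 51.5% of all genes called, and 24 of 45 tests in single regions were called, beside 32.1% of genes in CGC, 35% in mPOA, 38.2% in NACShell, 47% in PLC and 41.2% in Raphe. The Camk2a call in CGC (0.32, adjusted p = 0.0465) was lost when any of 9 of the 10 replicates was left out, with an adjusted p of up to 0.117. In PLC, where Camk2a rose furthest, 4 of 5 excitatory markers were wholly higher and 1 wholly lower in Probiotics, with sums of 759 to 827 CPM against 622 to 688 CPM in Maltodextrin, and their part was not tested.

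Maltodextrin rats, set against Control rats, had less of both forebrain kinase subunits. Camk2a in PLC, at the 84.3 to 105 CPM given above for Maltodextrin rats, lay below the 238 to 302 CPM of Control rats in every library (-1.49 ± 0.09, edgeR, adjusted p = 8.44e-15). Over the 5 regions Camk2a fell by 0.52 ± 0.10 (adjusted p = 0.000114), with calls in PLC and Raphe alone among single regions, and Camk2b fell by 0.42 ± 0.07 (adjusted p = 8.37e-06), called in each region. Camk2d fell by 0.12 ± 0.03 (adjusted p = 0.00206), yet rose in CGC to 46.8 ± 5.54 CPM, against 33.8 ± 2.53 CPM in Control, with no overlap (0.27, adjusted p = 0.00174), and was furthest down in NACShell (-0.46, adjusted p = 2.00e-06). Ppp3cc rose by 0.39 ± 0.07 (adjusted p = 4.89e-05), and rose most of the members in CGC (0.67), mPOA (0.56) and Raphe (0.40), the call in Raphe being lost when any of 4 replicates was left out (adjusted p of up to 0.0933). Ppp3ca rose by 0.17 ± 0.07 (adjusted p = 0.0443), a call lost when any of 9 of the 10 replicates was left out (adjusted p of up to 0.0933). It was called higher in PLC (0.36, adjusted p = 9.40e-05) and NACShell (0.21, adjusted p = 0.0347), the second lost when any of 8 of the 10 replicates was left out (adjusted p of up to 0.0781). Camk2b was furthest down in CGC (-0.31) and mPOA (-0.23, a call lost when any of 7 replicates was left out, with an adjusted p of up to 0.0934), and Camk2a in Raphe (-0.80). Ppp3r1 changed by 0.06 ± 0.04 (adjusted p = 0.164), with rises in CGC (0.18, adjusted p = 0.0144) and Raphe (0.35, adjusted p = 8.20e-05) and a fall in NACShell (-0.25, adjusted p = 0.000120). With Maltodextrin and Control alone in the fit, it was called (0.07, adjusted p = 0.0470). Thus 2 members rose and 3 fell, beside 53.3% of all genes called, and 27 of 45 tests in single regions were called, beside 46.3% of genes in CGC, 37.9% in mPOA, 46.4% in NACShell, 49.1% in PLC and 33.3% in Raphe. In PLC 3 of 5 excitatory markers were wholly lower and 1 wholly higher in Maltodextrin, with sums of 622 to 688 CPM against 832 to 882 CPM in Control, and their part was not tested.

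Several of these changes depended on the baseline. Set against Maltodextrin in place of Control, Ppp3r1 differed by -0.87 with Bupropion and -0.28 with FT, Camk2d by -0.28 and -0.40, and Ppp3cc with Bupropion by -0.66, and these were called. With Desipramine, Camk2a at -0.34, Camk2g at -0.45 and Ppp3cc at 0.22 were still called, whereas Camk2d (-0.05) and Ppp3cb (0.08) were not. With Bupropion, the rise of Ppp3ca (0.04, adjusted p = 0.642) and the fall of Camk2a (-0.08, adjusted p = 0.490) were no longer called, while Camk2b (0.41) and Camk2g (0.28) were called higher. The rises of Ppp3ca and Ppp3cc and the falls of Camk2a and Camk2b with FT turned sign, and so did the fall of Camk2b with Desipramine. The turned values lay between -0.11 and 0.17, and of them the 0.17 of Camk2b with FT was called. Ppp3cb (0.03) and Camk2g (-0.16) were not called with FT, and Camk4 at -0.25 was. Without FT replicate 1, the differences of FT from Maltodextrin were -0.32 for Ppp3r1, -0.39 for Camk2d and -0.27 for Camk4, and, of the turned ones, -0.15 for Ppp3ca, -0.16 for Ppp3cc, 0.18 for Camk2a and 0.27 for Camk2b; these 7 were called, and Ppp3cb (-0.02) and Camk2g (-0.05) were not.

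The choice of regions mattered as well. In CGC, PLC and Raphe alone, without the mPOA and NACShell libraries, the fall of Ppp3r1 with FT was -0.07 and not called (adjusted p = 0.213, and -0.09 without FT replicate 1, adjusted p = 0.0742). In those regions the fall of Camk2d with Maltodextrin was not called (-0.03, adjusted p = 0.502), nor the rise of Ppp3ca (0.13, adjusted p = 0.113). The fall of Ppp3cc was not called with Bupropion (-0.14, adjusted p = 0.164) or Probiotics (-0.17, adjusted p = 0.0883), and Ppp3r1 was called higher with Desipramine (0.11, adjusted p = 0.0268) and Maltodextrin (0.16, adjusted p = 0.00338). Summed over all 10 regions, Camk2a was not called with Bupropion (-0.14, adjusted p = 0.274), Maltodextrin (-0.20, adjusted p = 0.147) or Probiotics (-0.02, adjusted p = 0.890). Nor was Camk2b with FT (-0.03, adjusted p = 0.695) or Maltodextrin (-0.11, adjusted p = 0.178). Ppp3ca lost its call with FT (adjusted p = 0.720), Bupropion (0.0534) and Maltodextrin (0.288), Camk2g (0.0534) and Ppp3cb (0.767) with FT, and Ppp3cb (0.133) and Camk2d (0.495) with Desipramine. Without FT replicate 1, Camk2b with FT was called higher over all 10 regions (0.07, adjusted p = 0.0112), and Ppp3ca (-0.10, adjusted p = 0.00530) and Ppp3cb (-0.06, adjusted p = 0.0181) lower. Over 8 regions, without ILC and dorDG, Camk2b with FT (-0.14, adjusted p = 0.0707) and Camk2d with Desipramine (-0.03, adjusted p = 0.410) were not called. The 10 regions include the groups whose values chose the members and the FT libraries that go against their labels.

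The same treatment moved a member differently in different regions. A test of the treatment by region terms over the 5 regions (edgeR, 4 terms) called all 9 members with FT (also without FT replicate 1) and Desipramine and 8 of 9 with Bupropion, Probiotics and Maltodextrin, Camk2g being the exception each time. These shares stand beside 66.7% of all genes called with FT, 70.2% with Bupropion, 62.8% with Desipramine, 54.3% with Probiotics and 62.6% with Maltodextrin. For Ppp3r1 the changes ran between -1.37 in CGC and -0.32 in mPOA with Bupropion (adjusted p of the difference 7.40e-17), between -0.73 in NACShell and 0.24 in Raphe with FT (5.87e-15, or 4.61e-14 without FT replicate 1), and between -0.30 in NACShell and 0.35 in CGC with Desipramine (3.89e-11). For Camk2a they ran between -1.09 in PLC and 0.56 in NACShell with Bupropion (4.76e-23), between -1.49 in PLC and 0.11 in NACShell with Maltodextrin (6.42e-22), and between 0.23 in mPOA and 1.24 in PLC with Probiotics (5.56e-15). Ppp3ca had its lowest change in NACShell with all 3 drugs, where it was -0.15 with FT, -0.23 with Bupropion and -0.27 with Desipramine. Its highest was in mPOA with FT at 0.84 and Desipramine at 0.57 and in PLC with Bupropion at 0.53.

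With Probiotics some of these calls rested on a few libraries. Without Probiotics replicate 4 the differences of Ppp3r1 (adjusted p = 0.0520) and Ppp3cb (0.0613) were no longer called, and the call of Camk2d (0.0283) was lost when any of 5 replicates was left out, with an adjusted p of up to 0.156. With Maltodextrin the call of Ppp3cc was lost without Control replicate 2 (0.0750), and Camk2g (0.0590) was called without any one of 4 replicates. With Bupropion Camk2g (0.174) was called without Bupropion replicate 3 (0.0279).

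**Figure D5:**
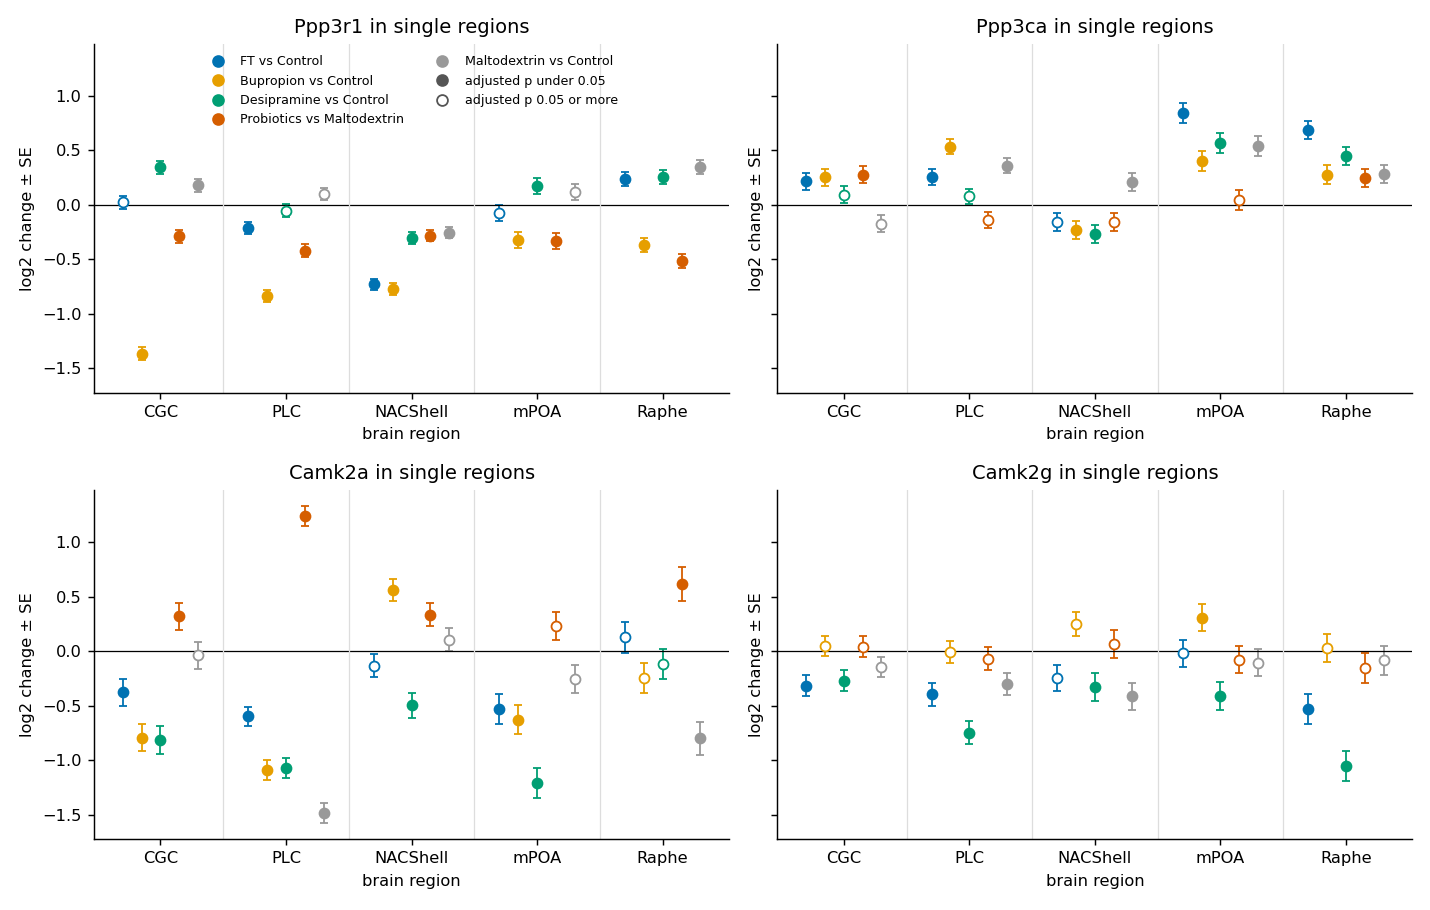
Log2 change of Ppp3r1, Ppp3ca, Camk2a and Camk2g with its standard error in each of 5 regions and comparisons; filled points have an adjusted p under 0.05. Ppp3r1 lies below 0 in all 5 regions with Bupropion, down to -1.37 in CGC, while Ppp3ca in the same libraries reaches 0.53 in PLC.

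In dorDG, where the Probiotics libraries were only described, the drugs and Maltodextrin were tested against Control. Camk2a was at 137.0, 177, 137.0, 225 and 166 CPM in Desipramine rats, against 474, 488, 504, 473 and 492 CPM in Control rats. The groups were far apart (-1.52 ± 0.18, edgeR, adjusted p = 1.05e-07). Camk2b fell with Desipramine (-0.53, adjusted p = 0.000335), while Ppp3ca (0.42, adjusted p = 0.000348) and Ppp3cb (0.33, adjusted p = 0.000333) rose. Ppp3r1 fell to 1144 ± 59.8 CPM in Bupropion, against 1556 ± 96.1 CPM in Control (-0.39 ± 0.08, adjusted p = 0.000462), and Ppp3ca rose there (0.33, adjusted p = 0.00819). In Desipramine the fall of Ppp3r1 (-0.24, adjusted p = 0.0135) was lost without Control replicate 1, 2 or 5 or Desipramine replicate 3, with an adjusted p of up to 0.0932. With FT, Ppp3r1 at 1268 ± 211 CPM was not called (-0.19, adjusted p = 0.0545), and was called without FT replicate 1 (-0.30, adjusted p = 0.00127), while the rise of Ppp3ca (0.23, adjusted p = 0.0439) came to 0.06 without it (adjusted p = 0.501). With Maltodextrin in dorDG edgeR called none of the 9 members, of which 1, Ppp3ca, had an unadjusted p under 0.05, and DESeq2 called 0 of the 7 members to which it gave an adjusted p. The member furthest up with FT was Ppp3cb (0.26, adjusted p = 0.00368, and 0.16 without FT replicate 1, adjusted p = 0.0526) and furthest down Camk2a (-0.64, adjusted p = 0.00484, and -0.48 without FT replicate 1). With Bupropion they were Camk2b (0.34, adjusted p = 0.0279, lost when any of 6 replicates was left out, with an adjusted p of up to 0.0731) and Ppp3cc (-0.69, adjusted p = 0.000720). Counts were 5 of 9 with FT beside 29.4% of all genes, 4 with Bupropion beside 15%, 5 with Desipramine beside 33.1%, and 0 with Maltodextrin beside 0.939%. In the FT libraries all 4 choroid plexus markers were wholly higher, with sums of 4708 to 6574 CPM against 26.0 to 39.6 CPM in Control, and their part was not tested.

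In ILC, where the Control libraries were only described, Maltodextrin served as the baseline. Camk2a was at 318, 309, 325, 348 and 329 CPM in Probiotics rats, against 90.1, 85.5, 78.1, 83.8 and 95.0 CPM in Maltodextrin rats. The Probiotics libraries were all far above (1.78 ± 0.10, edgeR, adjusted p = 4.84e-17). Camk2b rose in all 3 groups, to 596 ± 21.0 CPM with Probiotics, 445 ± 69.1 CPM with Desipramine and 542 ± 32.0 CPM with Bupropion, against 290.1 ± 10.0 CPM in Maltodextrin. Ppp3r1 was at 415, 422, 392, 367 and 357 CPM in Bupropion rats, against 809.5, 841, 819.7, 813 and 840.4 CPM in Maltodextrin rats, and so lay wholly below (-0.89 ± 0.06, adjusted p = 2.09e-15). It fell with Probiotics as well, to 612 ± 32.5 CPM (-0.57 ± 0.06, adjusted p = 4.37e-10). Ppp3cc fell with Bupropion to 5.91 ± 0.798 CPM, against 12.8 ± 1.42 CPM in Maltodextrin (-0.92 ± 0.11, adjusted p = 3.62e-09). Counts were 6 of 9 with Bupropion beside 66.2% of all genes, 4 with Desipramine beside 37.1% and 5 with Probiotics beside 50.7%. Of the Desipramine calls, that of Camk2a (0.34, adjusted p = 0.00495) was lost without Desipramine replicate 5 (adjusted p = 0.0521), and that of Ppp3r1 (-0.17, adjusted p = 0.0221) without any of 4 replicates (adjusted p of up to 0.120). Of 5 oligodendrocyte markers, 3 were wholly higher and 1 wholly lower with Bupropion, at sums of 3584 to 3967 CPM against 1740 to 1929 CPM in Maltodextrin. All 5 were wholly higher with Desipramine, at sums of 3451 to 3802 CPM, and with Probiotics, at 3406 to 3544 CPM, against 1740 to 1929 CPM in Maltodextrin. Their part was not tested.

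The wider pathway was read from a list of 33 genes, of which 32 were tested. It holds calmodulin genes and calmodulin-binding buffers, calcineurin inhibitors and scaffolds, upstream and related kinases, inhibitors and phosphatases of the kinases, and the transcription factors that calcineurin and CaM kinases act on. With Probiotics, 17 rose and 7 fell, with a median change of 0.19 beside 0.01 over all genes. Mef2d rose by 1.22 ± 0.13 (edgeR, adjusted p = 4.15e-09) and Nfatc2, a factor that calcineurin dephosphorylates, by 1.09 ± 0.15 (adjusted p = 5.91e-07), while the calmodulin gene Calm2 fell by 0.67 ± 0.05 (adjusted p = 1.84e-11) and the calmodulin-binding Pcp4 by 0.42 ± 0.06 (adjusted p = 2.59e-07). With Maltodextrin against Control, 5 rose and 15 fell, with a median of -0.12 beside 0.02. Nfatc2 fell by 0.93 ± 0.15 (adjusted p = 9.25e-06) and Crtc1, a CREB coactivator that calcineurin dephosphorylates, by 0.89 ± 0.15 (adjusted p = 2.09e-05). Both comparisons share the Maltodextrin libraries.

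With Desipramine, 11 pathway genes rose and 15 fell, with a median of -0.15 beside -0.03 over all genes. Ppm1f, a phosphatase that switches CaM kinases off, fell by 1.21 ± 0.12 (edgeR, adjusted p = 6.15e-10). Of the CaM kinase II inhibitor genes, Camk2n2 fell by 1.21 ± 0.41 (adjusted p = 0.00978) and Camk2n1 rose by 0.43 ± 0.05 (adjusted p = 2.02e-09). With FT, 11 rose and 11 fell, or 14 and 11 without FT replicate 1. Nrgn, a calmodulin-binding postsynaptic protein, rose by 0.73 ± 0.12 (adjusted p = 2.81e-06), or 0.87 without FT replicate 1, and Calm3 fell by 1.04 ± 0.09 (adjusted p = 1.38e-11), or 0.93 without it. With Bupropion, 10 rose and 8 fell. Rcan3, of the calcineurin regulator family, rose by 0.94 ± 0.10 (adjusted p = 6.92e-09) and Ppm1f fell by 0.76 ± 0.11 (adjusted p = 1.97e-06). Ppm1f was also lower with FT (-0.82, adjusted p = 7.65e-07, or -0.68 without FT replicate 1) and with Maltodextrin (-0.42, adjusted p = 0.00284). It was thus lower in each comparison with the shared Control libraries. Ppp3r2, the other calcineurin B gene, known from testis, changed by -0.83 ± 0.32 with Bupropion (adjusted p = 0.0322). Its adjusted p there was up to 0.139 when single replicates were left out. It was not called in the other comparisons. Over all genes, between 24.3% and 30.9% were called higher and between 25.8% and 35.5% lower in the 5 comparisons.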

How the data were processed

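RNA of 300 rat brain samples was sequenced, and the authors deposited whole-number read counts per gene for 17337 genes. Per the submitters' processing notes, FastQC, STAR and HTSeq were used with build rn6; neither versions nor the counting mode and its strand setting were stated there, which leaves reads of overlapping genes possibly mixed. The labels give no batch.

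From these deposited counts, CPM were computed on raw library totals. Changes were fitted in R 4.3.3 with edgeR 4.0.16 (filterByExpr, TMM, quasi-likelihood F test, Benjamini-Hochberg adjustment over all genes tested, threshold 0.05). Counts of CGC, mPOA, NACShell, PLC and Raphe were added up for each treatment replicate (30 sums), with a gene-wise offset for the makeup of the sum. Single regions were fitted on their 30 libraries, and differences between regions on the 50 libraries of a comparison with treatment replicate and region as covariates and 4 interaction terms. The scripts were tested on simulated data. DESeq2 1.42.0, RLE scaling, no filter, fits of only the groups compared, a replicate block, other regions, a Maltodextrin baseline and leaving out low or single libraries were the alternatives. Counts of 600 pairs of libraries of one group had a chi-square of at least 1.36 per degree of freedom, so no library was taken as a repeat.

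The text names all 9 members, and for each comparison and region the called member with the highest positive and the lowest negative change. It also names the 5 genes most like Ppp3r1 (Pearson's r of group means of log2(CPM + 1), mean of at least 5 CPM) and, of the pathway list, genes by size of change. The members and lists were chosen with earlier results of these data known. BLA, venDG and LConly are given as levels only. Sequences are from RefSeq tables of build GRCr8.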

Additional observations from a re-analysis of the deposited data

Results flagged for a closer look

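In 56 of the 540 combinations of a member and a group (10.4%), the highest or lowest library lay so far from the other 4 that its gap to the nearest took more than 0.71 of the range of the group, where chance gives about 5%. FT replicate 1 held 27 of the 56 and Desipramine replicate 3 held 6, of which 5 were in its BLA library of 198260 reads. In FT replicate 1, Ppp3ca was the highest of its group at 1966 CPM in BLA, 1825 CPM in CGC, 3649.9 CPM in dorDG, 659 CPM in ILC, 1472 CPM in LConly, 623 CPM in mPOA, 2148 CPM in NACShell, 1469 CPM in PLC, 508 CPM in Raphe and 2233 CPM in venDG. Ppp3cb in FT replicate 1 was the highest of its group at 477 CPM in CGC and 482 CPM in LConly. Ppp3cc in that replicate was the highest of its group at 19.8 CPM in LConly and 22.0 CPM in Raphe. Ppp3r1 in that replicate was the highest of its group at 845 CPM in LConly and 434 CPM in mPOA. In FT replicate 1, Camk2a was the lowest of its group at 98.3 CPM in LConly. Camk2b in FT replicate 1 was the lowest of its group at 384 CPM in BLA, 499 CPM in CGC, 948 CPM in dorDG, 357 CPM in ILC, 396 CPM in LConly, 323 CPM in mPOA, 522 CPM in NACShell, 215 CPM in Raphe and 779.7 CPM in venDG. In FT replicate 1, Camk2g was the lowest of its group at 25.6 CPM in BLA. In the Desipramine BLA library of replicate 3, Ppp3ca was lowest at 762 CPM, Ppp3r1 was lowest at 535 CPM, Camk2d was lowest at 30.3 CPM, Camk2g was lowest at 25.2 CPM and Camk4 was lowest at 30.3 CPM.

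The other libraries that stood off came from several treatments and regions. Ppp3ca stood off as the highest library in Bupropion dorDG (replicate 1, 3194 CPM), the lowest library in Probiotics mPOA (replicate 1, 314 CPM), the lowest library in Maltodextrin mPOA (replicate 3, 296 CPM) and the highest library in Bupropion venDG (replicate 1, 1474 CPM). Ppp3cb stood off as the highest library in Maltodextrin CGC (replicate 3, 429 CPM), the highest library in Bupropion dorDG (replicate 1, 373 CPM), the lowest library in Maltodextrin NACShell (replicate 3, 293 CPM) and the lowest library in Maltodextrin Raphe (replicate 5, 96.1 CPM). Ppp3cc stood off as the highest library in Maltodextrin ILC (replicate 2, 15.3 CPM), the lowest library in Bupropion LConly (replicate 4, 4.49 CPM), the highest library in Bupropion mPOA (replicate 1, 7.98 CPM) and the highest library in Desipramine Raphe (replicate 3, 17.8 CPM). Ppp3r1 stood off as the highest library in Probiotics PLC (replicate 2, 767 CPM). Camk2a stood off as the highest library in Probiotics BLA (replicate 4, 245 CPM), the highest library in Bupropion dorDG (replicate 5, 569 CPM), the highest library in Desipramine ILC (replicate 5, 166 CPM) and the lowest library in Maltodextrin venDG (replicate 5, 186 CPM). Camk2b stood off as the lowest library in Maltodextrin dorDG (replicate 3, 1431 CPM) and the lowest library in Probiotics ILC (replicate 2, 559 CPM). Camk2d stood off as the lowest library in FT NACShell (replicate 5, 37.0 CPM), the highest library in Desipramine NACShell (replicate 2, 52.8 CPM) and the lowest library in Probiotics venDG (replicate 1, 7.63 CPM). Camk4 stood off as the highest library in Control dorDG (replicate 5, 155 CPM) and the lowest library in Maltodextrin LConly (replicate 5, 20.8 CPM).

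The effect of a treatment differed between CGC, mPOA, NACShell, PLC and Raphe for 42 of the 45 combinations of a member and a comparison, by edgeR's test of the treatment by region terms with Benjamini-Hochberg adjustment over all genes; the background of each comparison stands in the report. For FT against Control the adjusted p was 1.13e-05 for Camk2a, 4.36e-15 for Camk2b, 1.06e-08 for Camk2d, 0.0149 for Camk2g, 0.000676 for Camk4, 1.16e-21 for Ppp3ca, 1.29e-12 for Ppp3cb, 5.48e-06 for Ppp3cc and 5.87e-15 for Ppp3r1. For Bupropion against Control the adjusted p was 4.76e-23 for Camk2a, 1.32e-05 for Camk2b, 0.000571 for Camk2d, 4.32e-07 for Camk4, 1.37e-15 for Ppp3ca, 5.34e-10 for Ppp3cb, 0.00059 for Ppp3cc and 7.40e-17 for Ppp3r1. For Desipramine against Control the adjusted p was 1.41e-06 for Camk2a, 6.84e-05 for Camk2b, 7.45e-09 for Camk2d, 1.93e-06 for Camk2g, 0.00239 for Camk4, 3.88e-15 for Ppp3ca, 1.13e-08 for Ppp3cb, 5.12e-05 for Ppp3cc and 3.89e-11 for Ppp3r1. For Probiotics against Maltodextrin the adjusted p was 5.56e-15 for Camk2a, 0.000141 for Camk2b, 0.0283 for Camk2d, 1.59e-10 for Camk4, 1.71e-11 for Ppp3ca, 0.0131 for Ppp3cb, 1.24e-05 for Ppp3cc and 0.00304 for Ppp3r1. For Maltodextrin against Control the adjusted p was 6.42e-22 for Camk2a, 4.96e-08 for Camk2b, 4.03e-08 for Camk2d, 9.42e-05 for Camk4, 1.51e-13 for Ppp3ca, 1.12e-09 for Ppp3cb, 0.0166 for Ppp3cc and 5.27e-11 for Ppp3r1. The summed levels of the cell type marker lists in these comparisons stand in the report, and their part in these differences was not tested.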

How the results depend on the processing

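Counts of members called over the 5 regions moved by more than 1.5 times under 3 settings. With Maltodextrin as the baseline, 4 members were called with FT, against 9 with Control, and 3 with Desipramine, against 6. With all 10 regions, 5 were called with FT (9 in the 5 regions) and 3 with Maltodextrin (5). In a fit of only the groups compared, 8 were called with Maltodextrin. Without Probiotics replicate 4, 5 members differed between regions in Probiotics, against 8. The cause was not tested. The sign turned with Maltodextrin as the baseline for Ppp3ca (-0.00349), Ppp3cc (-0.111), Camk2a (0.0512) and Camk2b (0.171) with FT and for Camk2b with Desipramine (0.0236). With all 10 regions it turned for Ppp3cb with FT (-0.0134), Camk2d with Desipramine (0.0237) and Camk2a in Probiotics (-0.0207). Without FT replicate 1, the sign turned with FT for Ppp3ca (-0.146), Ppp3cb (-0.0242), Ppp3cc (-0.163), Camk2a (0.184) and Camk2b (0.272) with Maltodextrin as the baseline, and for Ppp3ca (-0.0999), Ppp3cb (-0.0645) and Camk2b (0.0732) with all 10 regions.

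When single replicates were left out, members called over the 5 regions numbered 7 to 9 with FT, 5 to 5 with Bupropion, 6 to 6 with Desipramine, 4 to 5 in Probiotics and 4 to 5 with Maltodextrin. Calls in single regions numbered 30 to 34 with FT, 22 to 24 with Bupropion, 31 to 32 with Desipramine, 20 to 24 in Probiotics and 24 to 27 with Maltodextrin. Differences between regions numbered 9 to 9 with FT, 8 to 9 with Bupropion, 9 to 9 with Desipramine, 5 to 8 in Probiotics and 7 to 9 with Maltodextrin. Calls in dorDG numbered 11 to 15 and calls in ILC 13 to 16. Under the remaining alternatives, single-region calls numbered 27 to 33 with FT, 22 to 28 with Bupropion, 31 to 34 with Desipramine, 23 to 30 in Probiotics and 26 to 33 with Maltodextrin.

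Replicate numbers did not pair the samples of different treatments. In 35 checks of a comparison in a region, every pair of same-numbered libraries had r over 0.1 in 2, and the median r was 0.0645. Between regions, libraries of the same treatment and number had a median r of 0.0802. The sums over 5 regions and the test between regions took that number as the link between regions. The replicate block gave 8 calls with FT over the 5 regions against 9, losing Ppp3ca (adjusted p = 0.0553), 33 single-region calls with FT against 32, 25 in Probiotics against 24 and 15 in dorDG against 14; the other counts of calls did not move. Leaving replicates out of the test between regions, the fit of CGC, PLC and Raphe alone, leaving out FT replicate 1 together with another baseline or set of regions, and the TMM and RLE scaling of the described differences were chosen after seeing the data. Depth limits Ppp3cc most, with a median of 93 reads per library.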

Other observations

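BLA, venDG and LConly enter no test, and their levels are given as means on raw totals with the SD over 5 libraries. In BLA, Camk4 averaged 79.1 ± 9.11 CPM in FT rats, against 157.5 ± 4.86 CPM in Control rats, and Ppp3r1 564 ± 73.6 CPM in FT against 1054 ± 41.0 CPM in Control. The Desipramine libraries of BLA varied most, with 125 ± 53.4 CPM for Camk4, and include the library of 198260 reads. In Probiotics rats Camk2a averaged 225 ± 10.7 CPM in BLA, against 179 ± 9.23 CPM in Maltodextrin rats.

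In venDG, Ppp3ca and Ppp3r1 lay in opposite directions in Probiotics rats. Ppp3ca averaged 2076 ± 118 CPM in Probiotics against 1349.6 ± 33.4 CPM in Maltodextrin, and Ppp3r1 491 ± 48.6 CPM in Probiotics against 1180.5 ± 80.5 CPM in Maltodextrin. Camk2d, low in that region, averaged 19.9 ± 2.55 CPM in Desipramine rats against 9.58 ± 1.58 CPM in Control rats. In LConly, Camk4 averaged 62.6 ± 3.52 CPM in Desipramine rats and 27.2 ± 1.23 CPM in Bupropion rats, against 17.0 ± 1.17 CPM in Control rats. Camk2b averaged 322 ± 30.7 CPM in Desipramine and 249.9 ± 10.9 CPM in Bupropion, against 139.9 ± 10.8 CPM in Control.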
